A study of Mus musculus with 13 samples.

Results

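The oncofetal genes Igf2bp1, Igf2bp2, Igf2bp3, Hmga1, Hmga2, Lin28a and Lin28b were followed through the differentiation of mouse islet progenitors. They were chosen by name, and every bead array probe annotated to 1 of the 7 genes was taken, whatever its level. The annotation names 7 such probes of the 25697 on the array, for 4 of the 7 genes: Igf2bp1 has 1 probe and Igf2bp3, Hmga2 and Lin28a have 2 each. Igf2bp2, Hmga1 and Lin28b were not analysed here. Total RNA of 13 samples was labelled with biotin and hybridised to single-colour Illumina bead arrays. The samples were embryonic stem cells (ESC) of the W9.5 line, which served as negative control (n = 2), purified islet progenitors taken from pancreas and differentiated for 0 days (n = 4), 1 day (n = 3) or 4 days (n = 2), and islets of adult pancreas as positive control (n = 2). All 13 are labelled C57BL/6. The labels give no age of the animals, no way of purification and no culture condition, and nothing says whether replicates came from separate animals or cultures, so the spread behind each p-value is that of the arrays and may be technical. Values are log2 intensities normalised between arrays, and a value above 7.24 was called above background.

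The labels were checked against marker genes. All 7 pluripotency markers were above background on both ESC arrays, with a mean log2 intensity of 11.61 to 11.64 over the list, against 7.10 to 7.41 on the 11 pancreatic arrays. The mean of 8 endocrine markers was 12.31 to 12.86 on the pancreatic arrays and 7.07 to 7.10 in ESC. Other cell types were present in the pancreatic samples. The mean of 3 red cell markers was 9.99 to 11.01 at day 0, 8.38 to 10.39 at day 1, 7.07 to 7.14 by day 4 and 8.25 to 8.80 in the adult. The mean of 7 acinar markers was 9.47 to 11.59 at day 0 and 13.28 to 13.64 in adult islets. Mesenchyme markers differed between the 2 ESC arrays. Their mean over 9 genes was 9.09 on replicate 1, with 9 above background, and 8.03 on replicate 2, with 4. Their part in the ESC levels was not tested.

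Igf2bp proteins bind messenger RNAs, among them that of the fetal growth factor Igf2, and affect their stability, transport and translation. Lin28 proteins bind let-7 precursors and block their maturation, and let-7 in turn represses Lin28, Igf2bp and Hmga2 messages. Hmga proteins are architectural chromatin factors that bind AT-rich DNA. Igf2bp1, Igf2bp3, Hmga2 and the Lin28 genes are known as genes of fetal and tumour tissue that are mostly silent in adult organs. Igf2bp1 and Hmga2 are known let-7 targets.

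The let-7 sequences are shown because the shared seed ties these families together; no let-7 level was measured here. In RefSeq (GRCm38.p6) 10 mature 5′ names share the seed GAGGUAG and let-7j has GAGGUAU. The capitals mark the seed, bases 2 to 8.
mmu-let-7a-5p: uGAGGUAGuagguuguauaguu
mmu-let-7d-5p: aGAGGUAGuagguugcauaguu
mmu-let-7e-5p: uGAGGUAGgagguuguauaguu
mmu-let-7g-5p: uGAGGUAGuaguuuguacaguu
mmu-let-7i-5p: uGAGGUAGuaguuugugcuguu
mmu-miR-98-5p: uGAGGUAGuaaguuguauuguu
mmu-let-7j: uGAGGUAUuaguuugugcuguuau

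Igf2bp3 and Igf2bp1 fell from progenitors to adult islets, and both were at background in the adult. Igf2bp1, an RNA-binding protein of embryonic tissue, measured 10.87 and 11.26 on the ESC arrays. It was 9.58, 9.42, 9.56 and 9.18 at day 0, 8.89, 9.23 and 8.90 at day 1, and 8.16 and 8.44 at day 4. Adult islets read 6.89 and 6.94, below background. Only the arrays of day 0 and day 1 came near each other: the highest day 1 array stood above the lowest of day 0, and all other neighbouring groups were apart. Group means were 11.06 ± 0.28 (SD, n = 2) in ESC, 9.43 ± 0.18 (SD, n = 4) at day 0, 9.01 ± 0.19 (SD, n = 3) at day 1, 8.30 ± 0.20 (SD, n = 2) at day 4 and 6.91 ± 0.03 (SD, n = 2) in adult islets.

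Igf2bp3, a paralogue that binds RNA in the same way and is known from placenta and tumours, was read by a pair of probes. The brighter, probe 1, measured 11.15 and 10.83 in ESC and 10.78, 11.08, 11.37 and 10.48 at day 0. It was 10.49, 10.97 and 10.42 at day 1, 10.05 and 10.18 at day 4, and 7.06 and 6.97 in adult islets. Day 0 and day 1 arrays overlapped with each other and with ESC, day 4 lay below all of them, and adult islets were at background. Probe 2 measured 10.33 and 9.98 in ESC, 9.98, 10.48, 10.58 and 10.44 at day 0, 9.81, 10.15 and 10.04 at day 1, 9.05 and 9.26 at day 4, and 6.97 and 7.04 in adult islets. The order of the groups was the same as for probe 1 from day 0 onward. Across the 13 arrays the pair of probes had a Pearson r of 0.977, given as a description of 2 probes on shared samples.

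**Figure D1:**
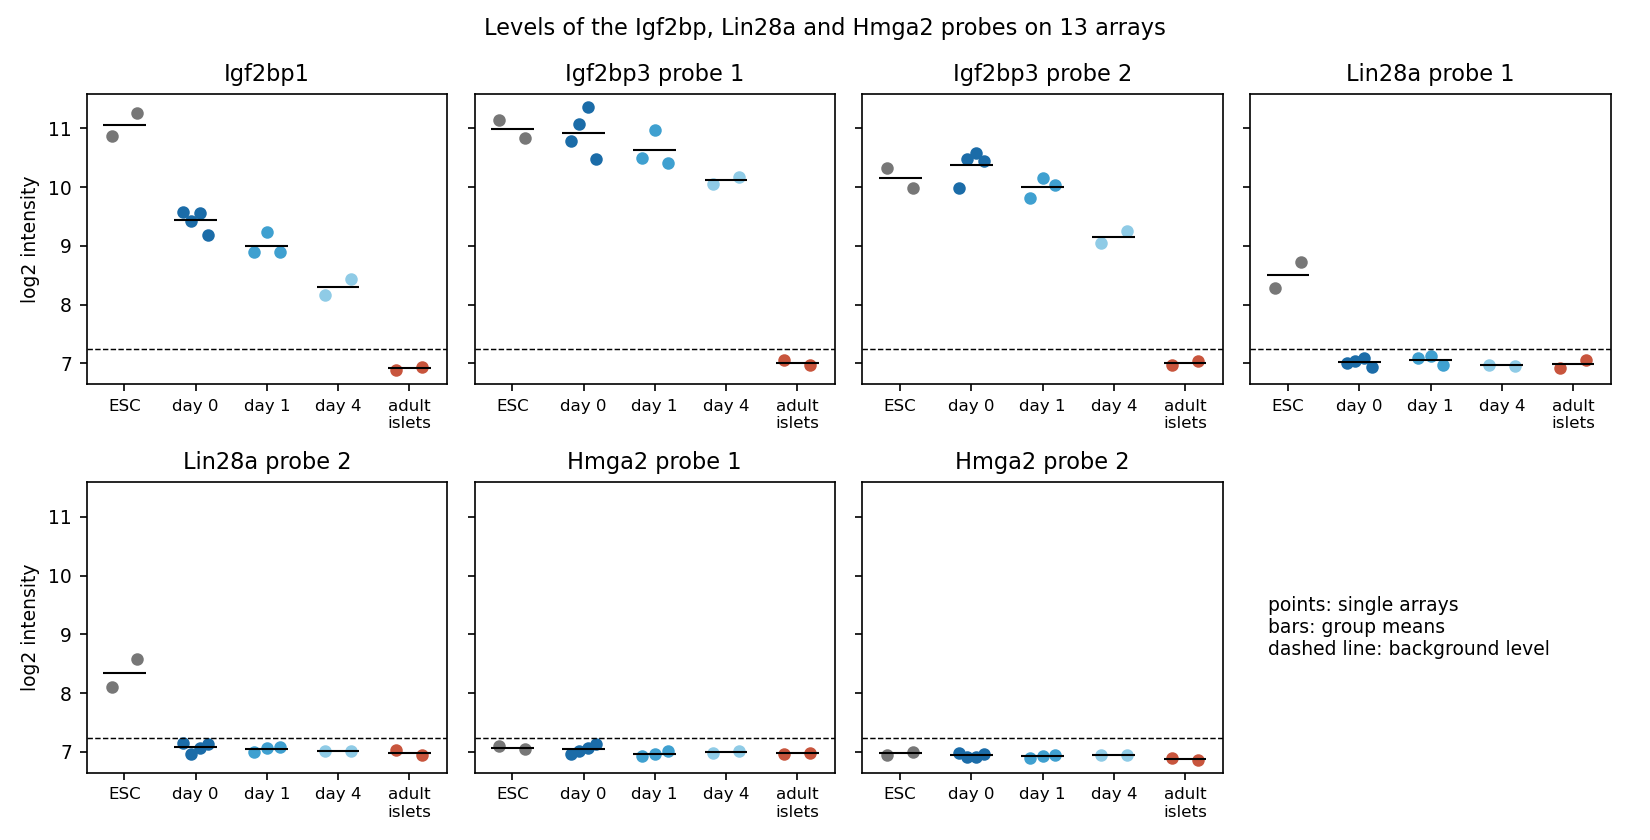
Log2 intensity of the member probes on each of the 13 arrays by group; points are arrays, bars are group means and the dashed line is the background level of 7.24. Igf2bp1 and both Igf2bp3 probes lie below the line in adult islets only, Lin28a lies above it in ESC only, and Hmga2 lies below it on every array.

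The Igf2bp3 promoter is printed because its probes had the largest member differences between adult islets and progenitors; Igf2bp1 is named only. The window covers 250 bases before to 50 after the RefSeq start, chr6:49214905-49215204 on the minus strand of GRCm38.p6, 5′ to 3′. Capitals mark matches to CACGTG, to CCAAT (or ATTGG) and to TATAAA (or TTTATA), searched on both strands; no matches overlapped.
Igf2bp3: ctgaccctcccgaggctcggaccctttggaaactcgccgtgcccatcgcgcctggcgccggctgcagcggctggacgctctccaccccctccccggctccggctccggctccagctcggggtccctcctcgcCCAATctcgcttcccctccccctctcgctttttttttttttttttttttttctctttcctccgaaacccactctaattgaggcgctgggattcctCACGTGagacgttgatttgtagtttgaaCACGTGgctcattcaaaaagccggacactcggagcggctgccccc
It holds 2 CACGTG matches, starting at -23 and 5 counted from 0 at the annotated start, and 1 CCAAT match. Of 32851 mouse windows of the same length, 7.15% hold CACGTG, 0.594% hold it at least 2 times, and 37.4% hold CCAAT. These matches are a description and say nothing of binding.

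Between progenitor days the tests were as follows. The 5 member probes tested include both of Lin28a, which were below background on all pancreatic arrays. Only the Igf2bp probes could therefore show a change between these days. In limma's fit, with Benjamini-Hochberg adjustment over the 14946 probes above background on at least 2 arrays, none of the 5 member probes tested passed 0.05 from day 0 to day 1, where 1.89% of all probes were called lower and 1.58% higher, and 2 members had an unadjusted p under 0.05. The differences on the log2 scale were -0.43 ± 0.14 (SE) for Igf2bp1, with an adjusted p of 0.149, and -0.30 ± 0.20 and -0.37 ± 0.15 for Igf2bp3, with adjusted p of 0.544 and 0.259. From day 1 to day 4 likewise 0 of 5 passed limma's test, against 0.428% of all probes called lower and 0.97% higher, and 2 had an unadjusted p under 0.05. Igf2bp1 differed by -0.71 ± 0.17 (adjusted p 0.0752) and Igf2bp3 probe 2 by -0.84 ± 0.18 (adjusted p 0.0542).

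Over the whole course, day 4 against day 0, Igf2bp1 fell 2.2-fold and Igf2bp3 fell on both probes. Here 3 of 5 member probes were called lower, all of them Igf2bp probes, and 0 higher. Both Lin28a probes were below background at these stages. Of all probes 5.12% were lower and 5.13% higher. Igf2bp1 fell by 1.14 ± 0.16 (SE; adjusted p 0.00207), Igf2bp3 probe 2 by 1.21 ± 0.17 (adjusted p 0.0023) and probe 1 by 0.81 ± 0.23 (adjusted p 0.0495). The call of probe 1 was lost under 17 of 26 alternative settings, and without day 4 replicate 1 all 3 calls were lost, with adjusted p of 0.051 for Igf2bp1 and 0.0515 for Igf2bp3 probe 2.

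For the Igf2bp genes, adult islets stood far below every progenitor stage. Both Lin28a probes were below background in all these groups and could not show a change. Of 5 member probes 3 were lower than at day 4 (of all probes 5.68% were lower and 6.84% higher) and 3 were lower than at day 0 (17.1% lower and 15% higher). Against day 0, Igf2bp1 was at least 4.58-fold lower and Igf2bp3 at least 12.9-fold and 8.76-fold lower on its 2 probes, as limits set by background, with adjusted p of 1.37e-06, 7.88e-07 and 3.26e-07. Against day 4 the limits were at least 2.08-fold, 7.36-fold and 3.78-fold lower, with adjusted p of 6.56e-04, 2.86e-05 and 5.63e-05. These calls held in all alternatives run. In bulk samples such as these, fewer cells of a type and less RNA per cell cannot be told apart. The comparisons share arrays, the adult islets and day 0 among them, so they are not independent.

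**Figure D2:**
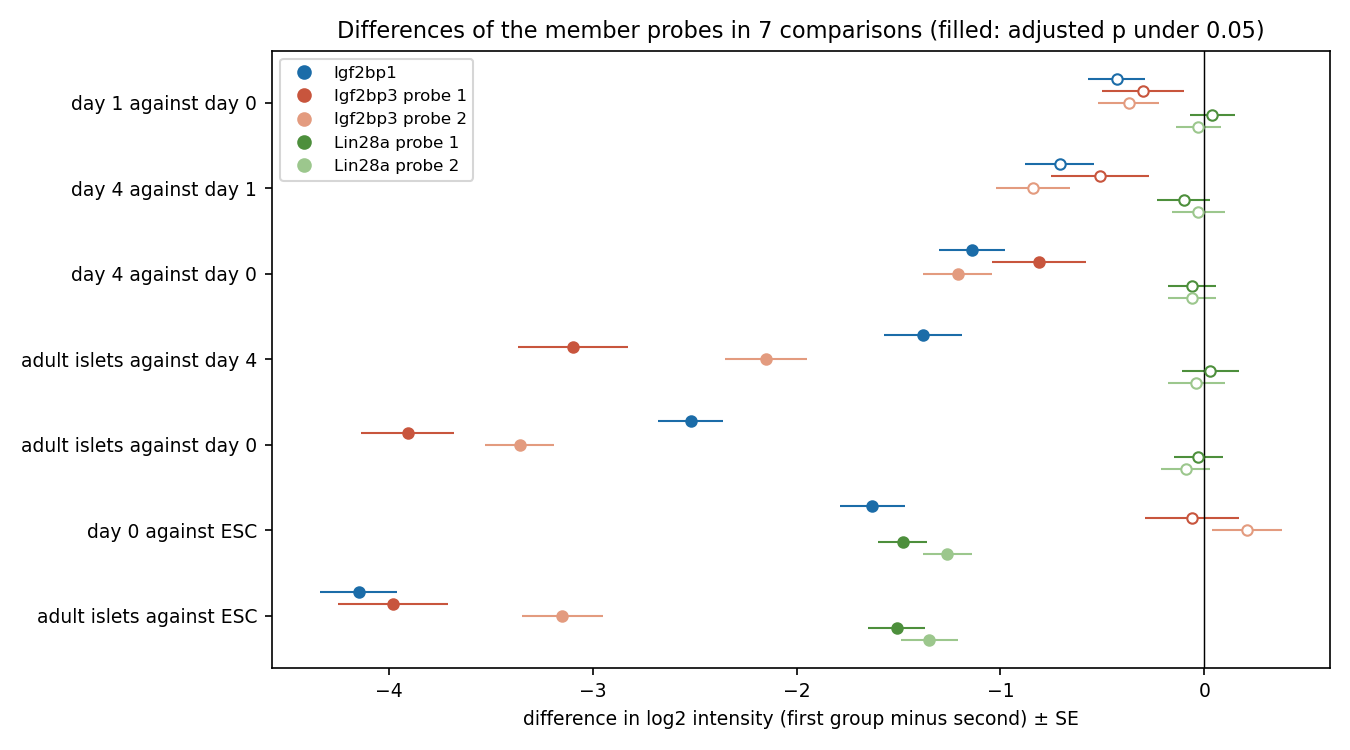
Log2 difference of the Igf2bp1, Igf2bp3 and Lin28a probes in the 7 comparisons, with its standard error. The Hmga2 probes are not drawn. Filled points passed an adjusted p of 0.05 in limma's test. No point between neighbouring days is filled, and that of Igf2bp3 probe 1 in adult islets against day 0 is -3.91.

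Against ESC the 2 Igf2bp genes differed in pattern. Igf2bp1 was 3.1-fold lower at day 0 (a log2 difference of -1.63 ± 0.16 SE, adjusted p 1.24e-05), while Igf2bp3 was close to its ESC level: -0.06 ± 0.23 for probe 1 (95% interval -0.57 to 0.44, adjusted p 0.842) and 0.21 ± 0.17 for probe 2 (-0.17 to 0.60, adjusted p 0.346). The difference between the genes was not itself tested. Of the 3 Igf2bp probes, 1 was lower than in ESC at day 0 (of all probes 23.7% were lower and 23.6% higher), and 3 were lower in adult islets (23.3% lower and 21.6% higher).

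Lin28a, the let-7 blocking protein of stem cells, was above background only in ESC. Probe 1 read 8.28 and 8.73 there and 6.92 to 7.12 on the 11 other arrays; probe 2 read 8.10 and 8.58, then 6.94 to 7.15. Both were at least 2.4-fold and 2.15-fold lower at day 0, with adjusted p of 3.37e-06 and 1.26e-05, but since they passed the filter through ESC alone they had to differ. Hmga2 stayed below background on all 13 arrays, at 6.93 to 7.13 and 6.87 to 7, ESC included, so no change in it was measurable.
The Lin28a promoter, chr4:134018767-134019066 on the minus strand of GRCm38.p6, is shown beside that of Igf2bp3 for the contrast in level. It holds none of the 3 motifs, so nothing is in capitals. The windows of Igf2bp2, Hmga1 and Hmga2 also hold none, and that of Lin28b holds 1 CACGTG and 1 CCAAT match. A link between motif and level was not tested.
Lin28a: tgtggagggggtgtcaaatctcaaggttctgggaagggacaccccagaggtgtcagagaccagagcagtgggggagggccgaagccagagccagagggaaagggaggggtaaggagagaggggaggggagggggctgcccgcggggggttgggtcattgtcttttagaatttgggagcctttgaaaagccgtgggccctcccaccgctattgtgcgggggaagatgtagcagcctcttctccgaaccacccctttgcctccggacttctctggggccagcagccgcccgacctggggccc

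Genes most like each member in pattern over the 13 arrays, not in level or size of change, were taken by Pearson's r, as a description. For Igf2bp1 they were Psmb3, a proteasome subunit (r = 0.985), Mrps22 of the mitochondrial ribosome (0.978) and Psmg2 (0.975). For Igf2bp3 they were Mrnip (0.975), Jpt1 (0.974) and Cdc42ep4 (0.968). For Lin28a they were 2210409E12Rik (0.995), L1td1 (0.994) and Eras, a Ras protein of stem cells (0.993). Lin28a was above background in ESC alone, so these r rest on the contrast of ESC with the other arrays. On the 11 pancreatic arrays, where Lin28a was at background, they were 0.497, 0.609 and 0.0766. Over the 11 pancreatic arrays alone Ghrl, the hormone ghrelin, was nearest to Igf2bp3 (r = 0.987), with a mean of 14.13 at the start, 12.43 by day 4 and 8.06 in the adult. Over all 13 arrays the r of Ghrl was 0.498, and its mean in ESC was 7.04, below background. Igf2bp1 and Igf2bp3 probe 1 themselves had an r of 0.831 over all 13 arrays and 0.963 over the 11 pancreatic arrays. Among those 11, both were at background in adult islets, so this r rests in part on the contrast of adult islets with progenitors.

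Genes of the Igf axis and fetal growth were followed beside the Igf2bp genes. Igf2, the growth factor whose message Igf2bp proteins bind, averaged 12.81 ± 0.82 (SD, n = 4) at day 0 and 13.05 ± 0.47 (SD, n = 2) at day 4, a difference of 0.25 ± 0.61 (SE, adjusted p 0.847). Dlk1, an imprinted membrane protein of fetal tissue, rose by 1.62 ± 0.20 from day 0 to day 4 (adjusted p 0.00116), from 12.43 ± 0.32 to 14.05 ± 0.10. Of 17 measured genes of the list 5 rose from day 0 to day 4, Dlk1, Igf1r, Igfbp3, Igfbp7 and Irs2, and 1 fell, Igf1, where 5.13% of all probes rose and 5.12% fell; the median difference was 0.11 against -0.01 over all probes. The 6 calls became 1 without day 4 replicate 1, without day 0 replicate 2 or 4, with the replicate block and with no filter, and 2 without day 4 replicate 2. The calls of Igfbp7 and Igf1 were lost without day 4 replicate 1 (adjusted p 0.32 and 0.215) or replicate 2 (0.207 and 0.217).
In adult islets 4 of the 17 were lower than at day 4 and the other 13 did not pass, where 5.68% of all probes were lower, with a median of -0.33 against -0.03 over all probes. The count became 2 without day 4 replicate 2 or without adult replicate 1. The 4 were Dlk1 (-6.30 ± 0.24, adjusted p 5.83e-08), Igf2 (-3.89 ± 0.71, adjusted p 0.00439), the cell cycle inhibitor Cdkn1c (-3.53 ± 0.84, adjusted p 0.019) and the proteoglycan Gpc3 (-2.58 ± 0.57, adjusted p 0.0128).

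**Figure D3:**
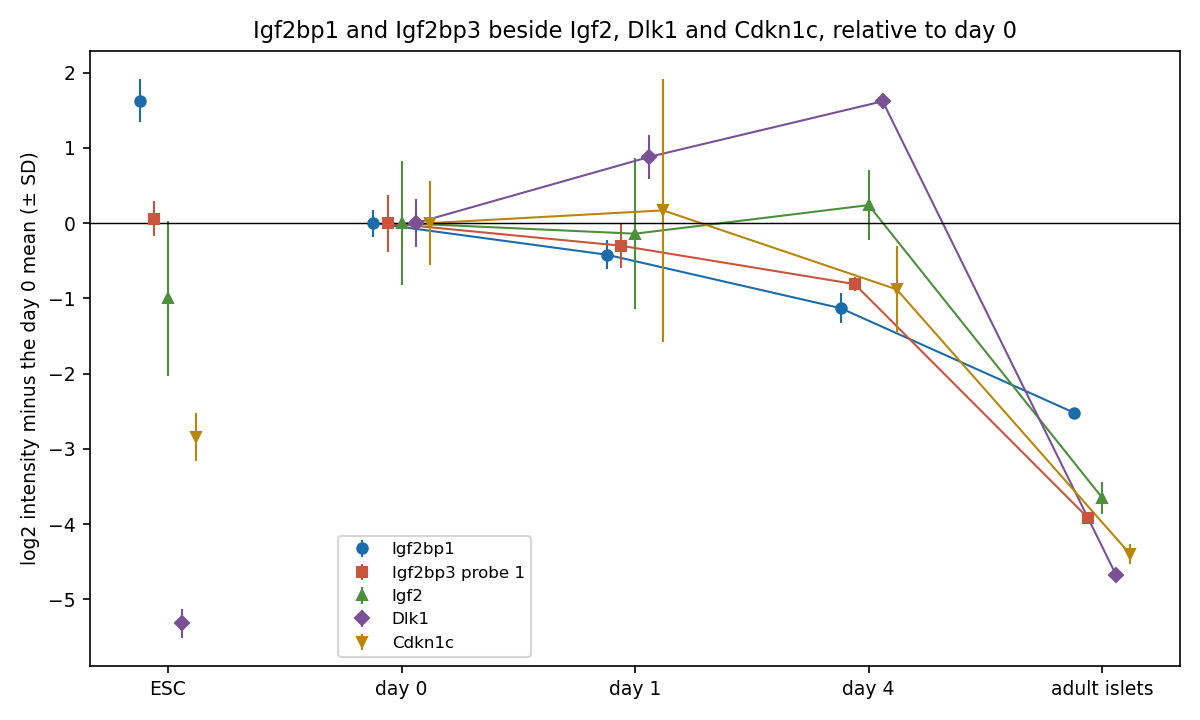
Mean log2 level of Igf2bp1, Igf2bp3 probe 1, Igf2, Dlk1 and Cdkn1c in each group relative to the gene's own day 0 mean, with SD. Dlk1 rises to day 4 while the Igf2bp genes go down, and all 5 are lowest among pancreatic groups in adult islets.

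Of 9 measured genes of let-7 processing and Lin28 partners, 1 fell from day 0 to day 4: Drosha, the nuclear nuclease of microRNA processing, by 0.55 ± 0.12 (adjusted p 0.0149), a call lost without day 4 replicate 1 (0.15) or replicate 2 (0.122). Against day 0, adult islets had 2 lower, Drosha (-0.94 ± 0.12, adjusted p 1.63e-04) and Dgcr8, its partner (lost without adult replicate 2, 0.127), and 2 higher, Ddx5 (lost without adult replicate 1, 0.0827) and Dicer1 (1.20 ± 0.30, adjusted p 0.0116); Dicer1 lost its call without adult replicate 1 (0.0846) or 2 (0.069). Without either adult array 2 of these 4 calls were left. Of all probes 17.1% were lower and 15% higher in adult islets than at day 0. From day 0 to day 4, 5.12% of all probes fell.
At day 0, 5 of the 9 were lower than in ESC, where 23.7% of all probes were, and Zcchc6, a uridylating enzyme that acts on let-7 precursors, was higher by 0.79 ± 0.12 (adjusted p 3.11e-04). These 6 calls became 3 without ESC replicate 1, where Khsrp was lost (0.112), and Ddx5 was lost without ESC replicate 2 (0.284). Of 13 other reported let-7 targets measured, 5 were lower and 2 higher in adult islets than at day 0, against 17.1% and 15% of all probes, with a median of -0.42 against -0.05. Without either adult array the 7 calls became 1. In the comparison of day 0 with ESC 7 were lower and 3 higher at day 0, against 23.7% and 23.6% of all probes. Rrm2, a ribonucleotide reductase subunit, averaged 7.69 before differentiation, 8.35 by day 4 and 7.09 in adult islets. The targets Mycn, Myc and Cdk6 were not above background on 2 arrays. The mean of 7 cell cycle markers ran from 8.02 to 8.70 at the start, 7.59 to 8.02 at day 1, 8.80 to 8.85 by day 4 and 7.21 to 7.38 in the adult. Of these 7 markers, 5 were called lower in adult islets than at day 4, where 5.68% of all probes were lower. The part of the cell cycle in these values was not tested.

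Among other HMG proteins 3 of 6 measured were higher and 1 lower at day 0 than in ESC, against 23.6% and 23.7% of all probes, with a median of 0.38 against 0.02. These 4 calls became 2 without ESC replicate 1, where Hmgn2 was lost (0.147). Hmgn3, a nucleosome-binding protein, was higher by 4.63 ± 0.14 (adjusted p 2.63e-09) and Hmgb2 fell by 3.09 ± 0.45 (adjusted p 2.01e-04). In adult islets 3 of 6 were lower than at day 0, Hmgn1, Hmgn2 and Hmgn3; the call of Hmgn2 was lost without either adult array (0.092 and 0.0697) and that of Hmgn1 without adult replicate 2 (0.0526). The count became 1 without adult replicate 1, 0 without adult replicate 2, and 1 with cyclic loess or the replicate block. Of all probes 17.1% were lower in adult islets than at day 0. Among Ink4 inhibitors of the cell cycle, of which Hmga2 is known to repress the Cdkn2a locus in stem cells, Cdkn2c rose from day 0 to day 4 by 0.56 ± 0.10 (adjusted p 0.00636), a call lost without either day 4 array, and the probes of Cdkn2a were not above background on 2 arrays.

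**Figure D4:**
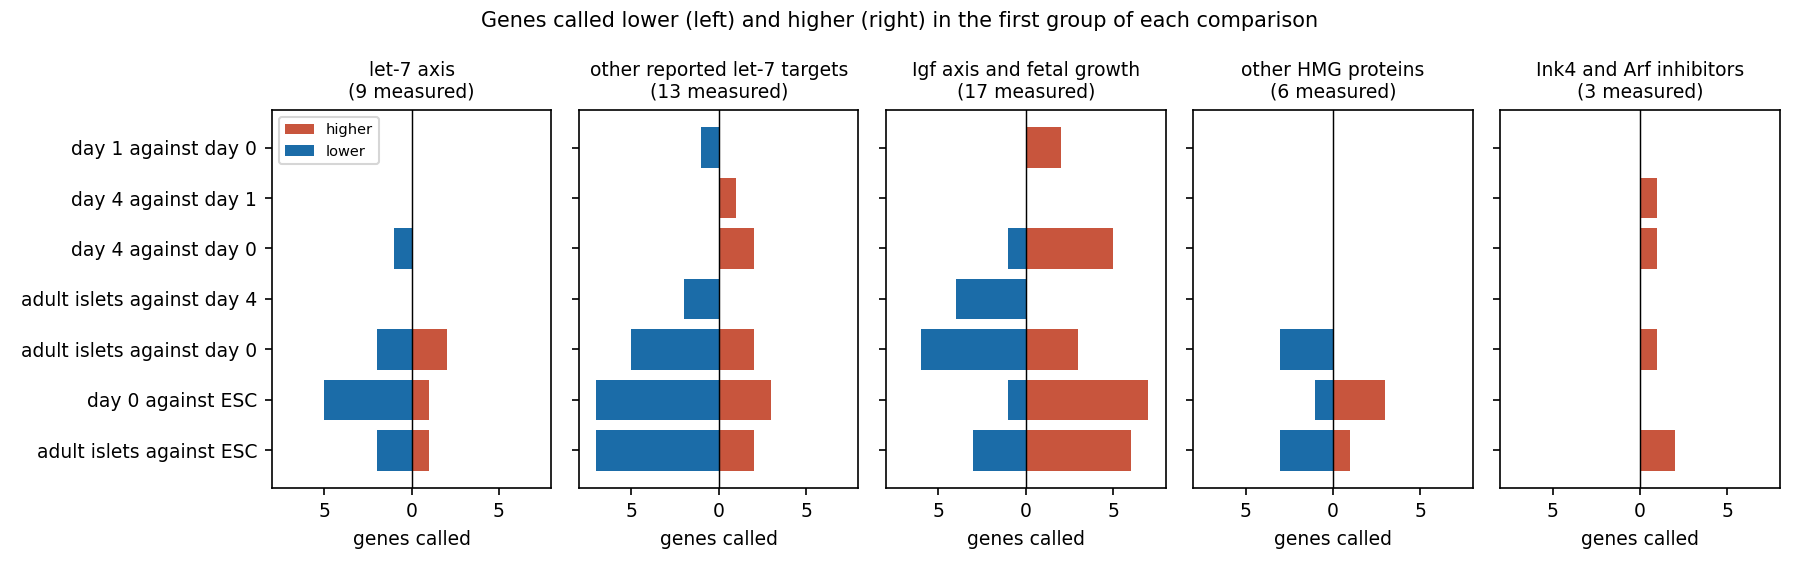
Number of genes called lower (left) and higher (right) in 5 gene lists for each of the 7 comparisons. Few genes of any list are called between neighbouring days, and most calls lie in comparisons with ESC or adult islets.

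The other cell types moved with some of these differences. Red cell markers were lower at day 4 than at day 0, 3 of 3, where 5.12% of all probes were lower. The haemoglobin gene Hba-a1 was above background on 1 of the 2 day 4 arrays, at 7.45. The part of red cell markers in the Igf2bp differences was not tested. The mean of 9 mesenchyme markers ran from 7.65 to 9.32 at the start, 8.32 to 8.73 by day 4 and 8.04 to 8.14 in the adult, and 0 of 9 were called by limma between adult islets and day 4 (0 with an unadjusted p under 0.05). Acinar markers were higher in adult islets, 4 of 7 against day 4, and so were 2 of 4 immune and 3 of 5 endothelial markers. In that comparison 5.68% of all probes were lower and 6.84% higher. The endothelial mean was 7.60 to 7.63 by day 4, with 1 of 5 above background, and 8.93 on both adult arrays, with 5 of 5; Emcn went from 6.96 to 10.62 and Pecam1 from 6.99 to 8.54. The mean of 4 ductal markers was 8.62 to 8.79 by day 4 and 8.19 to 8.30 in the adult, and 0 of 4 passed limma's test (2 with an unadjusted p under 0.05). The immune mean was 7.18 by day 4 and 9.13 to 10.21 in the adult. For all these markers, their part in the lower Igf2bp levels was not tested.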

How the data were processed

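Arrays were hybridised with biotin-labelled cRNA made with the Illumina TotalPrep kit from Trizol-extracted RNA checked on a Bioanalyser, per the labels. The deposited values are log2 intensities, already normalised between arrays by the authors with a method not given in the sources used here; base 2 was inferred from their range of 6.73 to 15.2. A second deposited table with 26 value columns names no sample and was not used.

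Of 25697 probes, 23978 have 1 gene symbol, 0 several and 1719 none. The background level was the mode of all values (6.98) plus 5 times the SD below it (0.052), and probes above it on at least 2 arrays (14946) were fitted. limma 3.58.1 in R 4.3.3 fitted 5 group means on all 13 arrays (residual df 8), with 7 comparisons and Benjamini-Hochberg adjustment at 0.05. The Hmga2 probes were fitted without the filter. A difference against a group below background is given as at least N-fold, from the bright group's mean to the background level or the dim probe's own. From each list, up to 2 rises and 2 falls per comparison with no overlap of arrays were picked by rule, and only part of these is given here. Other genes were named to complete a count, after their values were seen. They were Gpc3, Cdkn1c (against day 4), Igf1r, Igfbp3 and Irs2 (all at day 4) and Hmgn3 (adult islets). Ghrl, among likenesses over the pancreatic arrays, was also named after its values were seen. The number of arrays limits the precision. On simulated data of 14946 probes, 60% to 80% of 2-fold changes and 92% to 98% of 4-fold changes were recovered. Of the calls made there, 4.05% to 7.69% were false, with 7.51% for day 4 against day 0, at the threshold of 0.05. The member genes and the gene lists were chosen with earlier results of these data known. Same-numbered replicates were checked for pairing: 2 of 21 pairs had deviations correlating over 0.1, the highest at 0.387. Across numbers, deviations of day 0 array 3 and day 1 array 2 correlated at 0.6. Those of day 0 array 4 and day 1 array 3 correlated at 0.386. Whether such arrays share a source is not stated, and the main fit did not pair them. Alternatives were the background level, scaling, 1 probe a gene, array weights, an intensity trend, the groups fitted, a replicate block and each array left out.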

Additional observations from a re-analysis of the deposited data

Results flagged for a closer look

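Among 35 sets of 4 day 0 values tested, 2 held an array far from the others, about the share that chance gives (1 in 20 sets). Zcchc6 measured 10.79 in day 0 replicate 2, where the next value was 10.63 and the lowest 10.62. E2f2, a let-7 target, measured 7.47 in day 0 replicate 4, where the next was 8.01 and the highest 8.10. No member probe was among them.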

How the results depend on the processing

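Of 631 alternative values for 25 member results under 26 settings, 600 kept their direction and their side of the threshold. The 25 include the differences of both Lin28a probes against ESC. Those had to differ, since the probes passed the filter through ESC alone, so they add no evidence of stability. With array weights, 1 member probe was called from day 0 to day 1 and 3 from day 1 to day 4, and without both ESC arrays, a setting chosen after seeing the data, 1 from day 1 to day 4; with 1 probe a gene, adult islets against ESC gave 3, since fewer probes were tested. Leaving out 1 array at a time gave 0 to 3 member calls from day 0 to day 4 and 0 to 1 from day 1 to day 4. The difference of Igf2bp3 probe 1 between day 0 and ESC, which was not called, changed sign with the replicate block (0.06), without ESC replicate 1 (0.10) and without day 0 replicate 4 (0.08), and ran from -0.23 to 0.10 over arrays left out in turn.

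Counts over all probes moved more. From day 0 to day 1 the 519 calls became 1537 with array weights, 186 with only the 2 groups, 273 with the replicate block and 320 without day 0 array 3 and day 1 array 2. From day 1 to day 4 the 209 became 4650, 17, 19 and 139 under the same settings. From day 0 to day 4 the 1532 became 4068 with array weights and 724 with the block, and for adult islets against day 4 the 1872 became 5328 with array weights and 5483 with only the 2 groups. Leaving out 1 array gave 233 to 623, 8 to 441, 228 to 1836 and 822 to 2183 in these comparisons, 2499 to 5182 for adult islets against day 0, 5641 to 7201 for day 0 against ESC and 5095 to 6839 for adult islets against ESC. The cause was not tested. The replicate block also took the day 4 call of Igf2bp3 probe 1 (-0.93, adjusted p 0.0684). The labels do not say whether arrays with the same replicate number share a source. Of 60 results for named list genes, 28 lost their call under at least 1 alternative. Signal over background limits Hmga2 on all arrays and Lin28a outside ESC.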
